A study of Mus musculus with 6 samples.

Results

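Cytosines in the first introns of mouse genes, outside CpG islands and repeats, made up 936 of the 6756 cytosines (13.9%) that the authors listed as differently methylated in LSK cells without Tet1. They were taken by their label: an intron annotated as intron 1 of its transcript, with no island or repeat name in the detailed annotation. Of the 1116 first-intron cytosines listed, 106 carried an island name and 74 a repeat name, and these were set aside. The 936 cytosines lay in first introns of 640 transcripts, and the genes with the nearest start numbered 641 of the 3344 nearest genes of all listed cytosines. LSK cells are bone marrow cells that lack lineage markers and carry Sca-1 and Kit, the fraction that holds haematopoietic stem and progenitor cells. Cells were sorted from mice at 6 months of age, of a strain given as CD57BL/6, with 3 wild-type samples and 3 samples from Tet1 knockout mice. The labels do not describe the knockout allele, and separate mice are not named for the samples. DNA was read by enhanced reduced representation bisulfite sequencing, which mainly samples CpG-rich fragments. No transcripts were measured, so the sorted cells could not be checked against marker genes.

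Tet1 encodes a dioxygenase that oxidises 5-methylcytosine, a step on the way to its removal, and its protein has a domain that binds CpG-rich DNA. The DNA around the start of many mammalian genes, reaching from the promoter through exon 1 into the start of the first intron, carries little methylation, while the rest of the gene body is usually methylated. First introns also hold many enhancers and alternative promoters. Bisulfite sequencing does not separate 5-methylcytosine from 5-hydroxymethylcytosine.

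Each cytosine has 1 deposited value, the methylation of the knockout minus that of the wild type in percentage points, with no value below 25.0 in size. Values per sample, coverage and p-values were not used here, so the depth is unknown and no difference can be set against the spread between samples. The wild-type level, which limits the direction in which a cytosine can differ, was not used here either. Positions are on mm9, 1 cytosine on 1 strand.

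The distances below are counted from annotated starts, so the 250 bases before the start are shown for 4 of the genes named below. Ptges and Nek7 had the longest runs of gains, Wnt3a a run farther into the intron, and Akap6 a loss close to a start. The sequences are from RefSeq on GRCm38.p6, 5′ to 3′ on the gene's strand, with each CpG dinucleotide (the letters CG, the same on both strands) in capitals. The listed cytosines lie inside the genes on mm9 and were not placed on this build, whose starts may differ from those in the files.
Ptges, GRCm38.p6 chr2:30903298-30903547, reverse strand, 8 CpG: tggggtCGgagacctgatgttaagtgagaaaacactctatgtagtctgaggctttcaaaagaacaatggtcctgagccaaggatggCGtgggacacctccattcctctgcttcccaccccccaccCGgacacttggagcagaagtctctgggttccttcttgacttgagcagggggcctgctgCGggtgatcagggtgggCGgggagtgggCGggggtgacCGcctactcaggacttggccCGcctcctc
Nek7, GRCm38.p6 chr1:138619758-138620007, reverse strand, 17 CpG: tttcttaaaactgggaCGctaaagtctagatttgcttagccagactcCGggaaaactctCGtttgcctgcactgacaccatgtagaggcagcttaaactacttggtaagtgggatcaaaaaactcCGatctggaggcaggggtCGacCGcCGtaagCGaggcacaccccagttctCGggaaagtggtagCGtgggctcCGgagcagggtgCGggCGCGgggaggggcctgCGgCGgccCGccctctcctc
Wnt3a, GRCm38.p6 chr11:59290752-59291001, reverse strand, 41 CpG: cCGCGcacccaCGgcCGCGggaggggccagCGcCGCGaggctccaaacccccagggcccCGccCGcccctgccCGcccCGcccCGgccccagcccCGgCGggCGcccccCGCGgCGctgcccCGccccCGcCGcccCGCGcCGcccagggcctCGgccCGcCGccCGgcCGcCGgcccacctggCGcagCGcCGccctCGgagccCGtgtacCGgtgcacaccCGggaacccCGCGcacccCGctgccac
Akap6, GRCm38.p6 chr12:52699133-52699382, forward strand, 0 CpG: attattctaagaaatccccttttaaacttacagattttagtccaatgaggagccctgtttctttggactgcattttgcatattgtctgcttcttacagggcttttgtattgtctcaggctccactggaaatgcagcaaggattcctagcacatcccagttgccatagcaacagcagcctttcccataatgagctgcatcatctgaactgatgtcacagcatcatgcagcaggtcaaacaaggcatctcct
The 4 windows range from no CpG before Akap6 to 41 before Wnt3a. Akap6 does not stand for the genes with losses: the same window held 9 CpG for Kalrn, 15 for Mpzl1 and 40 for Rab6b. Of the 32851 windows of this length in the RefSeq table, 92.1% hold at least 1 CpG, with a median of 6.00 CpG.

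Most listed first-intron cytosines had gained methylation in the knockout. By the authors' deposited tables, 888 were hypermethylated and 48 hypomethylated, a hypermethylated share of 94.9% (95% interval 93.3 to 96.2%, exact by Clopper-Pearson and for counting error alone), beside 92.8% of all listed cytosines. Neighbours of 1 class and direction, with gaps under 1000 bp, were treated as 1 region, which gave 637 hypermethylated and 47 hypomethylated first-intron regions. The hypermethylated share of the regions was 93.1% (exact interval 91.0 to 94.9%), beside 89.8% of all 4412 listed regions. It stood 3.97 percentage points above the 89.2% of the 3728 regions of all other classes (two-sided Fisher's exact test with an adjusted p of 0.00163 over 4 comparisons). That difference did not pass among cytosines of at least 40 percentage points (2.86, Fisher's exact adjusted p = 0.0605) or among regions of at least 2 cytosines (0.749, adjusted p = 0.944), and beyond 5000 bp from a start it was -3.47 (adjusted p = 0.346, a setting chosen after the data were seen). Regions are no replicates, since every one of them rests on the same mice, so this and the other tests describe what was listed and carry no measure of variation from mouse to mouse. A high hypermethylated share was not particular to first introns. Promoter regions (96.2%) and island regions of first (96.9%) and later introns (96.4%) stood higher. Exons (90.9%), termination sites (90.0%), intergenic regions (88.5%), later introns (86.4%) and first (74.3%) and later introns (78.5%) in repeats stood lower. The single classes were not tested here.

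In the authors' deposited table the median of the hypermethylated cytosines was 39.2 percentage points, with the middle 50% between 32.2 and 48.7 and the highest at 88.3. The hypomethylated ones had a median of -32.1 percentage points and a range from -71.3 to -25.1. A difference of at least 40 percentage points was listed for 424 of the 888 gains and for 12 of the 48 losses, and 85 gains reached 60. The highest single gain, at 88.3 percentage points, lay 881 bp from the start of Rem1, the gene of a small GTPase of the RGK family. The deepest loss, at -71.3 percentage points, lay 110282 bp from the nearest start, in Kalrn, a gene of a guanine nucleotide exchange factor of dendritic spines.

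Most gains lay near the start of the gene. Of the 888 hypermethylated cytosines, 389 (43.8%) lay within 1000 bp of the nearest annotated start, 576 (64.9%) within 2000 bp and 681 (76.7%) within 5000 bp. Of the 48 hypomethylated cytosines, 3 lay within 1000 bp, 5 within 2000 bp and 12 (25.0%) within 5000 bp. The median distance was 1144 bp for gains (middle 50% from 668 to 4517 bp) and 12310 bp for losses (5044 to 28305 bp). The closest listed cytosine lay 105 bp from a start. Cytosines that were read but not listed are not known here, and the method mainly samples CpG-rich fragments. The counts therefore show where listed gains lay, not how often a cytosine near a start gained.

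**Figure D1:**
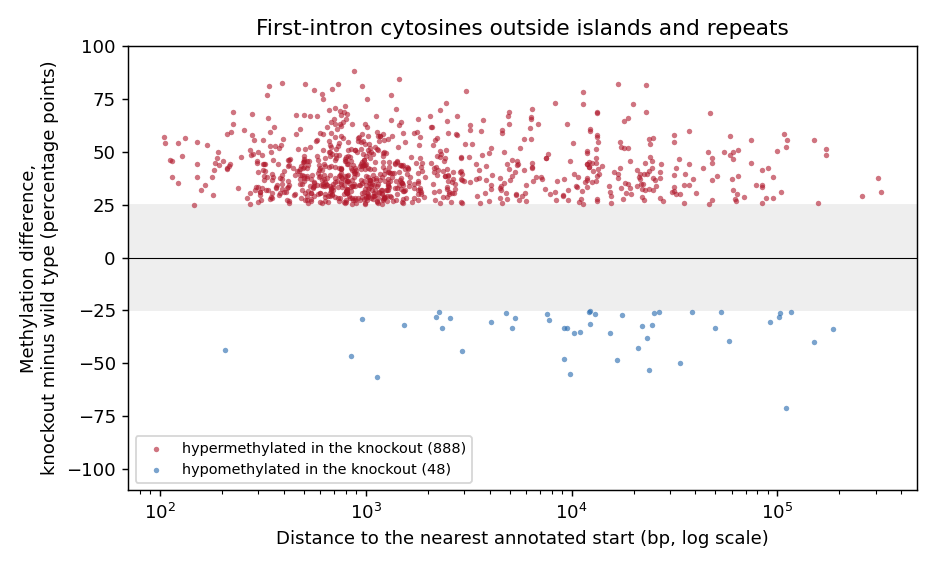
Each point is 1 of the 936 listed first-intron cytosines, with its distance to the nearest annotated start in bp (log scale) across and the deposited methylation difference in percentage points upward; red points are gains and blue points losses in the knockout, and the grey band marks differences too small to be listed. Of the 888 gains 576 lie within 2000 bp, while 36 of the 48 losses lie beyond 5000 bp.

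Direction differed with distance from the start within the first introns. Within 5000 bp of a start, 472 of 484 regions were hypermethylated (97.5%, exact interval 95.7 to 98.7%), and beyond 5000 bp 165 of 200 were (82.5%, 76.5 to 87.5%). The gap of 15.0 percentage points passed (odds ratio 8.34, two-sided Fisher's exact adjusted p = 1.41e-10). Among regions of at least 2 cytosines it did not pass (136 of 136 against 30 of 31, Fisher's exact adjusted p = 0.743). A higher share near starts was not particular to first introns. In all other classes together it was 94.9% (1271 of 1340) within 5000 bp and 86.0% (2053 of 2388) beyond, a pair not tested. In finer steps the first-intron share was 99.0% up to 500 bp, 98.9% from 500 to 1000 bp and 98.4% from 1000 to 2000 bp. It was 91.5% from 2000 to 5000 bp, 83.3% from 5000 to 10000 bp and 79.5% beyond 50000 bp. The median gain took no steady course with distance. It was 41.6 percentage points up to 500 bp, 36.8 from 1000 to 2000 bp, 41.3 from 10000 to 20000 bp and 38.6 beyond 50000 bp in the authors' deposited table.

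The introns most like these are the later introns of genes, outside islands and repeats, with 874 listed cytosines in 646 regions. There, 558 regions were hypermethylated (86.4%, exact interval 83.5 to 88.9%), a share 6.75 percentage points lower than in first introns (odds ratio 2.14, two-sided Fisher's exact adjusted p = 0.000113). Later-intron regions lay farther from starts: 130 of 646 (20.1%) were within 5000 bp, against 484 of 684 first-intron regions (70.8%). Within 5000 bp the first-intron share was again higher, 97.5% against 90.8% (Fisher's exact adjusted p = 0.00264), although 402 of those 484 first-intron regions and 58 of the 130 later-intron regions lay within 2000 bp. Within 2000 bp the shares were 98.8% (397 of 402) and 98.3% (57 of 58), and from 2000 to 5000 bp they were 91.5% (75 of 82) and 84.7% (61 of 72), with neither pair tested. Beyond 5000 bp the order turned, with 82.5% of first-intron and 85.3% of later-intron regions hypermethylated, and did not pass (Fisher's exact adjusted p = 0.479). These comparisons by distance were chosen after the data were seen. Whether distance within the nearest 5000 bp accounts for the difference there was not tested. Among regions of at least 2 cytosines the shares were 99.4% and 99.3% (Fisher's exact adjusted p = 1.00).

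**Figure D2:**
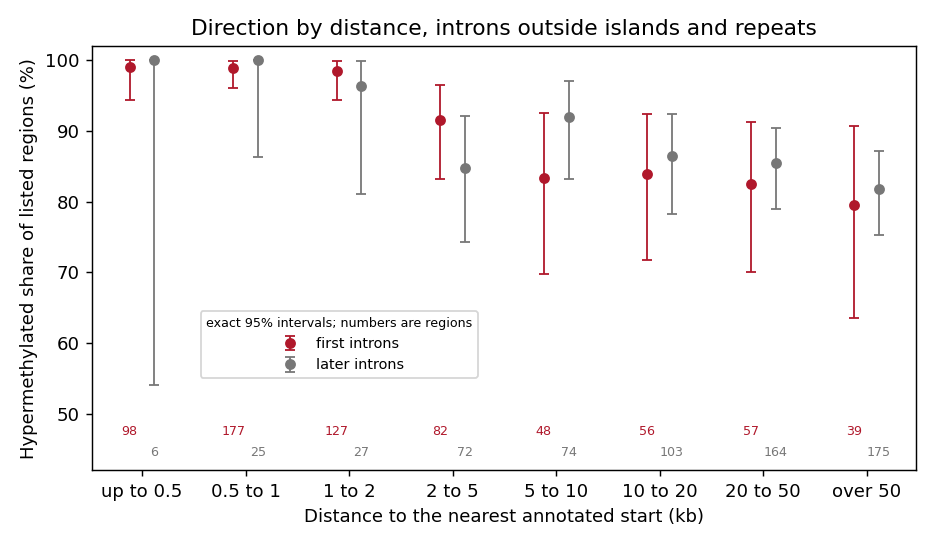
The hypermethylated share of listed regions in percent, by distance to the nearest annotated start in kb, for first introns (red) and later introns (grey), both outside islands and repeats; bars are exact 95% intervals that cover counting error only, the small numbers are regions, and the vertical axis does not start at 0. First introns stand at 98.4% or above in the 3 bins up to 2 kb and between 79.5 and 83.9% in the 4 bins beyond 5 kb.

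No difference in the size of gains between first and later introns was detected. A mean of at least 40 percentage points was reached by 290 of 637 hypermethylated first-intron regions (45.5%, exact interval 41.6 to 49.5%) and by 250 of 558 later-intron regions (44.8%, 40.6 to 49.0%), which are 0.723 percentage points apart (two-sided Fisher's exact adjusted p = 0.816). The medians were 38.7 and 38.6 percentage points. First-intron cytosines set aside for an island name were hypermethylated in 104 of 106 cases, with a median gain of 41.3 percentage points, and those in repeats in 56 of 74 cases, with a median gain of 37.4. These are given as counts, with no test.

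Nearly all runs of neighbouring cytosines were gains. Of the 684 regions, 517 held a single cytosine and 167 held at least 2, and 166 of the 167 were hypermethylated. In all other classes 1025 of 1039 such regions were (98.7%), so this is not particular to first introns. Cytosines were joined within 1 direction, so no region could hold both. Among the first introns, only Nav2 had a hypomethylated region with at least 2 cytosines. Cytosines close together on a strand can share sequence reads, which were 50 bases long: 330 of the 936 lay within 50 bp of another on the same strand. They are not independent measurements. At 11 CpG dinucleotides both strands were listed, with gaps between their differences of 2.72 to 23.2 percentage points (median 7.53). The strands gave the same direction at 11 of 11, all of them gains. Gains made up 94.9% of the first-intron cytosines, so most pairs would share a direction from that share alone. At the CpG of Rnf112 the strands stood at 54.2 and 56.9 percentage points, and at that of Cyp27b1 at 25.2 and 48.4.

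The longest runs lay near starts. Ptges, which encodes the inducible microsomal prostaglandin E synthase, had 7 hypermethylated cytosines in intron 1 of 2, at chromosome 2, 30758155 to 30758486. From the farthest to the nearest, 662 to 331 bp from the start, the deposited differences were 69.7, 30.6, 36.4, 52.7, 81.1, 65.8 and 76.9 percentage points. The 3 cytosines nearest the start all exceeded 60. Nek7, the gene of a mitotic kinase that also serves the NLRP3 inflammasome, had 8 in intron 1 of 9, at chromosome 1, 140514030 to 140515318. Its 3 farthest cytosines, 2206 to 2243 bp from the start, gained 41.4, 56.3 and 42.7 percentage points, and the other 5, 955 to 1295 bp from it, gained 33.3 to 36.8. The values of those 5 were thus all lower than those of the 3 farther ones.

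Dlg2, which encodes a scaffold protein of synapses, had 6 hypermethylated cytosines on chromosome 7, in intron 1 of 22. Of these, 5 lay 274 to 678 bp from a start, at 51.0, 67.9, 61.5, 82.4 and 58.9 percentage points, and 1 lay 172610 bp away at 48.6. Rbfox3, the gene of the neuronal splicing factor NeuN, had 6 in intron 1 of 14, spread from 1327 to 84188 bp from the start on chromosome 11. The nearest of them gained 76.7 percentage points and the farthest 33.3. Fam19a5 (Tafa5) and Fam19a2 (Tafa2), genes of small secreted proteins of the brain, had 7 and 5, with mean gains of 47.7 and 51.4 percentage points from the values the authors deposited. Ntm, the gene of the adhesion molecule neurotrimin, had 5 between 26.9 and 47.1 percentage points, 3 of them 616 to 638 bp and the others 309447 and 317452 bp from the start.

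Other leading genes serve varied functions. Wnt3a, a secreted Wnt ligand, had 5 cytosines in intron 1 of 3 on chromosome 11, 59101503 to 59101769, at 58.5, 40.4, 30.5, 58.7 and 41.6 percentage points, 2484 to 2750 bp from the start. Hps1, a subunit gene of the complex that builds lysosome-related organelles such as platelet dense granules, had 5 between 34.0 and 45.4 percentage points within 587 to 801 bp. Tmem45b, a transmembrane protein gene, had 5 between 32.0 and 50.0 within 353 bp of the start. Cstad had 6 in the only intron of its transcript, 5439 to 11950 bp from the start, with a mean of 42.9 percentage points. The cytosines of Tmem45b, Hps1 and Dlg2 lay on 1 strand each.

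The regions of at least 2 cytosines with the highest means lay in Agap1, Ank1, Scin, Ttc22 and Rem1. In Agap1, the gene of a GTPase-activating protein for ARF, 2 cytosines 11405 and 11421 bp from the start gained 72.4 and 78.4 percentage points, and another, 84344 bp away, gained 34.2. Ank1 encodes the ankyrin that ties the red cell membrane to its skeleton, and 2 cytosines 23055 and 23072 bp from its nearest start gained 81.3 and 68.8 percentage points. Scin, the gene of the actin-severing protein scinderin, had 3 within 616 to 756 bp, at 62.1, 70.9 and 77.4 percentage points. Ttc22 had 2, at 66.3 and 70.3 percentage points, and a promoter gain besides. Rem1 had 46.8 and 88.3 percentage points. Of these 5 regions, those of Scin and Rem1 lay within 1000 bp of a start.

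**Figure D3:**
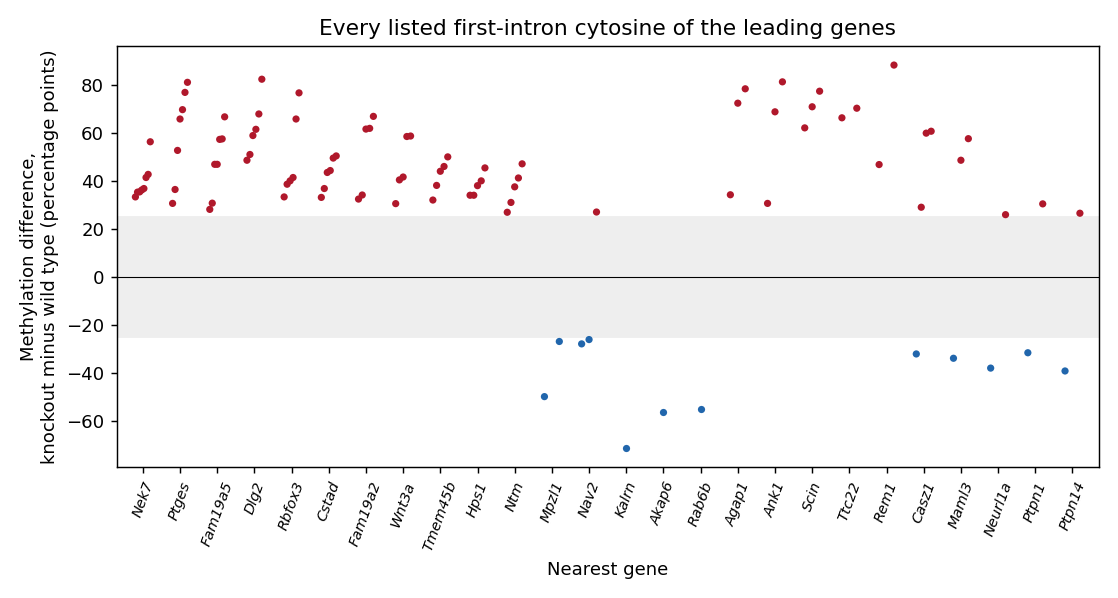
Every listed first-intron cytosine of leading genes, those with the most gains, the most losses, the highest regional means or sites of both directions, with the deposited methylation difference in percentage points upward; red points are gains, blue points losses, points of a gene are sorted by value, and the grey band marks differences too small to be listed. Dlg2, Scin, Ttc22 and Rem1 have all their points above 45, and Kalrn has the lowest point at -71.3.

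Losses were single cytosines far from starts in most cases, nearest to 45 genes. No gene had more than 2, and Mpzl1 and Nav2 had 2 each. The Mpzl1 losses lay 17504 and 33647 bp away at -27.0 and -50.0 percentage points, the second of them within the first intron of the neighbouring gene Rcsd1. Rab6b, a Golgi GTPase gene, had -55.0 percentage points at 9790 bp. Akap6, whose product anchors protein kinase A, had -56.5 percentage points at 1129 bp, one of the 5 losses within 2000 bp. The other 4, named after their values were seen, were nearest to Eml1, Gpc4, Pmaip1 and 2310067B10Rik (host gene Tmem94).

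Gains and losses shared a first intron in 6 genes. In Nav2, a microtubule-binding protein gene of growing axons, a gain of 27.0 percentage points lay 2182 bp from the start, and losses of -28.0 and -26.2 percentage points lay 102367 and 102382 bp away. Casz1, a zinc finger transcription factor gene, had gains of 29.0, 59.9 and 60.7 percentage points at 5757 to 12280 bp and a loss of -32.2 at 22106 bp. The Notch coactivator gene Maml3 had gains of 48.6 and 57.6 percentage points at 58614 and 58594 bp and a loss of -34.0 at 187083 bp. The phosphatase genes Ptpn1 and Ptpn14 had gains of 30.4 and 26.5 percentage points at 1018 and 738 bp, and losses of -31.7 and -39.3 at 24691 and 58254 bp. Neurl1a, a ubiquitin ligase gene, gained 25.9 percentage points at 897 bp and had -38.1 at 23176 bp. In each of the 6 genes every gain lay nearer to a start than every loss. Over all first-intron cytosines the median distance was 1144 bp for gains and 12310 bp for losses. Such an order would therefore be frequent from these distances alone, and it was not tested.

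Most of the 641 genes had no listed cytosine of another class. For 438 of them (68.3%) the first intron held all that was listed. Promoter cytosines were listed for 50, exon or untranslated cytosines for 57, later-intron cytosines for 45 and intergenic ones for 71. In 47 of the 50 genes with promoter cytosines the promoter and the first intron differed in the same direction. Gains made up 97.0% of all listed promoter cytosines and 94.9% of the first-intron ones, so most genes with both would share a direction from these shares alone. The other 3 were Pdha1, Gm5095 and C1qtnf7, named after their values were seen. Pdha1, the X-linked gene of a pyruvate dehydrogenase subunit, had 5 promoter gains with a mean of 35.9 percentage points, 63 to 105 bp from the start, and -44.1 in the intron at 2924 bp. C1qtnf7 had the opposite order, with 34.8 percentage points in the intron and -29.0 in the promoter of another of its transcripts. The largest first-intron gain in a gene with several promoter gains was that of Cpne7, at 81.2 percentage points beside 4 promoter cytosines with a mean of 57.1.

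Genes were grouped in lists, described by counts alone. Of all 3344 nearest genes 641 (19.2%) had a first-intron cytosine, 596 of them with gains alone. Among genes of Wnt, Notch, TGF-β and Hedgehog signalling it was 13 of 37 listed genes (35.1%), 12 with gains alone. They included 5 Wnt ligands: beside Wnt3a, single gains were listed in Wnt6 (38.9 percentage points), Wnt7b (36.6), Wnt9a (51.9) and Wnt9b (35.7). Inhbb, the gene of the inhibin and activin βB subunit, had 3 gains of 78.8, 36.6 and 47.6 percentage points 2904 to 3056 bp from its start. Smad4, the shared transducer of TGF-β and BMP signals, gained 44.7 percentage points at 1758 bp.

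Of 40 listed axon guidance and neuronal adhesion genes, 11 (27.5%) had first-intron cytosines, and of 60 listed ion channel genes 12 did, beside 641 of all 3344 (19.2%). All of these 11 and 12 genes had gains alone, as did 596 of the 641 genes with first-intron cytosines, so their direction does not set them apart. The median gain was 42.8 percentage points for the first list and 36.3 for the second, beside 39.2 over all first-intron gains. Cntn2, a contactin gene, gained 55.4 percentage points 288 bp from its start. Nrxn2, a presynaptic neurexin gene, had 38.1 and 55.7 at 1222 to 1340 bp, and Epha8, an ephrin receptor gene, 26.8 and 38.6 within 545 bp. The sodium channel gene Scn8a had 4 gains between 35.8 and 43.4 percentage points. Kcnip1, a modulator of potassium channels, had 3 between 32.1 and 49.8, 60668 to 60714 bp from the nearest start, and Cacng2 had 2 between 34.1 and 44.3.

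Of 32 listed blood and immune transcription factors, 10 (31.2%) had first-intron cytosines, beside 641 of all 3344 nearest genes (19.2%). Gains alone were listed for 8 of the 10, beside 596 of the 641. Irf8, which directs monocyte and dendritic cell formation, had gains of 28.1, 32.7 and 27.6 percentage points 266 to 542 bp from its start. Bcl11b gained 61.1 percentage points at 6296 bp, Ikzf3, a lymphoid Ikaros family gene, 53.7 at 3023 bp, and Tbx21, the gene of the T helper factor T-bet, 42.8 at 1301 bp. The losses were in Nfix (-25.1 percentage points at 12258 bp) and in Mecom (-40.0 at 149994 bp), both genes of stem cell factors. Among blood cell surface and signalling genes it was 5 of 17, with gains in Ank1, Trim58 (61.9 percentage points at 651 bp), Cd6 (35.7) and the red cell spectrin gene Spnb1 (33.8, now Sptb), and a loss in Cd82 (-29.3). The list of stem cell, cell cycle and blood cancer genes had 2 of 18, Mecom and Wt1, the second with gains of 35.0 and 50.1 percentage points.

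Of 48 listed kinases, phosphatases and their adaptors, 14 (29.2%) had first-intron cytosines, beside 641 of all 3344 nearest genes (19.2%). Gains alone were listed for 11 of the 14, beside 596 of the 641. Ppp2r2b, a regulatory subunit gene of protein phosphatase 2A, had 52.4 and 81.8 percentage points 681 to 730 bp from its start. Pik3r5, a regulatory subunit gene of the phosphoinositide 3-kinase of leukocytes, had 35.5 and 75.1 percentage points at 622 to 632 bp, and the receptor phosphatase gene Ptprt 4 gains between 37.3 and 45.8. Among 70 listed developmental transcription factors, 12 (17.1%) had first-intron cytosines, among them Tead1 with 3 gains (mean 37.3 percentage points) and Onecut1 with 2 (mean 52.2). Dlx1 was the nearest start to a loss of -53.3 percentage points that lay 23683 bp away, in the first intron of Metap1d. Cadherin, integrin and matrix genes had 6 of 52 (11.5%), all with gains alone, led by Cdh22 (3 gains, mean 38.3) and the metalloproteinase gene Mmp11 (30.4 and 65.3 percentage points).

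Among the genes of DNA methylation itself, no first-intron cytosine was listed for Tet1, Tet2, Tet3, Dnmt1, Dnmt3a or Dnmt3b. Dnmt3l, the gene of a cofactor of the methyltransferases DNMT3A and DNMT3B, gained 41.2 percentage points 183 bp from its start. The histone demethylase gene Kdm4b gained 38.0 at 1195 bp and the histone methyltransferase gene Setdb1 34.8 at 873 bp. Of 11 listed chromatin genes 4 had first-intron cytosines, 3 of them with gains alone, beside 641 of all 3344 nearest genes, 596 of them with gains alone.

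**Figure D4:**
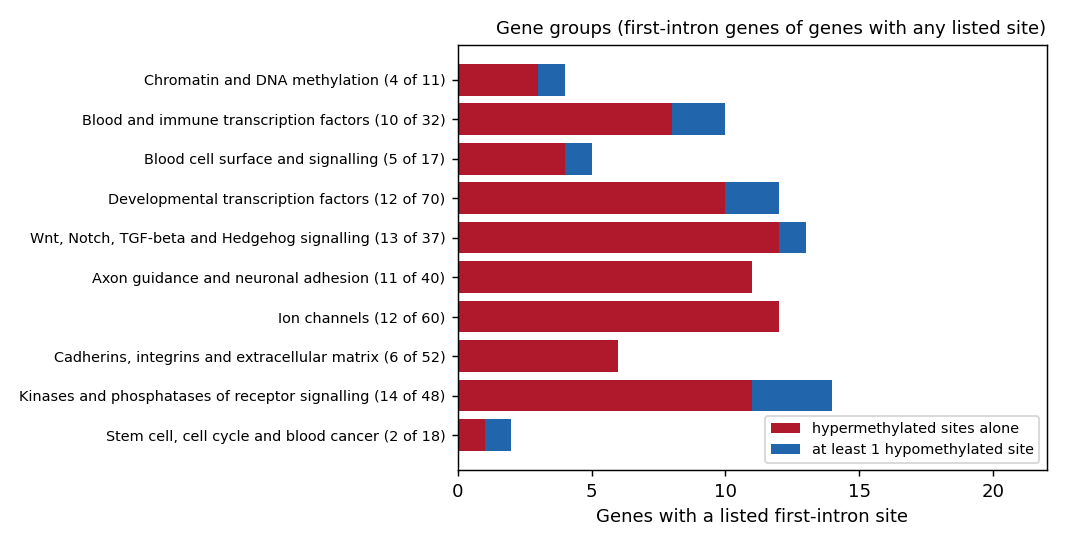
For each of 10 gene lists, the number of genes with a listed first-intron cytosine across, split into genes with gains alone (red) and genes with at least 1 loss (blue); the figures in brackets give these genes out of the list's genes with any listed cytosine. Axon guidance (11 of 40), ion channel (12 of 60) and cadherin and matrix genes (6 of 52) have no blue part, and the stem cell list has equal parts (1 and 1). Over all nearest genes it is 641 of 3344, 596 of them with gains alone.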

How the data were processed

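Enhanced reduced representation bisulfite sequencing was made on LSK cell DNA of 3 wild-type and 3 Tet1 knockout samples. The submitters' processing notes name Bismark and mm9 with no role, and per the file headers the annotation used mm9. The list names give a difference of 25, and no listed value was smaller in size. How sites were called otherwise, with which coverage minimum and significance threshold, is not given in the sources used here. In percent methylation, the authors' deposited tables give a difference in percentage points per cytosine, knockout minus wild type by list name and sign, and a distance to the nearest annotated start, whose absolute value was used. They hold 0 columns per sample, so the planned test of counts per site was not run.

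Members were found by annotation label. Host genes were named from the RefSeq table for GRCm38.p6 (920 of 936 sites), used for names alone. The host was the nearest gene at 873 sites, and the host transcript had the nearest start at 797. Cytosines of a class and direction less than 1000 bp apart were joined. Shares were compared with Fisher's exact test, two-sided, with Benjamini-Hochberg adjustment over 4 comparisons and a threshold of 0.05, in Python 3.11.15 with scipy 1.17.1. The joining and the tests were tested on simulated data. A comparison of promoter CpG content was set aside, since promoter windows were missing for part of the host genes. They were found for 461 of the 591 host genes of gains (78.0%) and for 36 of the 45 host genes of losses (80.0%).

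The members and the 11 lists (1257 symbols for 1255 genes of the RefSeq table) were chosen with earlier results of these data known. Named genes were the 12 with the most gains, the 6 with the most losses, those of the 5 highest regional means and of the 3 longest runs, up to 8 with both directions, up to 3 per list, and the Tet and Dnmt genes; further list members and extremes were chosen after their values were seen. Of these, 1 list and 2 genes are not reported here. Means and ranges over cytosines of a gene are not replicate errors. Other settings tried were a minimum difference of 40 (60 for the share of large gains), joining at less than 200 or 5000 bp, single cytosines, autosomes, regions of at least 2 cytosines, forward-strand cytosines, sites whose host is the nearest gene, and near starts within 2000 or 10000 bp.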

Additional observations from a re-analysis of the deposited data

How the results depend on the processing

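No paired analysis was possible because the tables hold 1 difference per cytosine over all samples, with no value per replicate, and for the same reason no replicate could be left out and no coverage minimum changed. The higher hypermethylated share of first than later introns passed under 8 of 10 other settings, that over all other regions under 7 of 10, and that near starts under 8 of 9; the splits at 5000 bp, chosen after the data were seen, are among the 10. At 40 percentage points the difference from all other regions was 2.86 percentage points and did not pass (Fisher's exact adjusted p = 0.0605). With regions of at least 2 cytosines the 3 differences were 0.126, 0.749 and 3.23 percentage points, and none passed (Fisher's exact adjusted p = 1.00, 0.944 and 0.743), with 1 hypomethylated first-intron region left. Beyond 5000 bp first introns stood at -2.77 percentage points against later introns and -3.47 against all other regions (Fisher's exact adjusted p = 0.479 and 0.346). The share of large gains, which did not pass under any setting tried, changed sign with single cytosines (-0.915), with regions of at least 2 cytosines (-5.32) and within 5000 bp (-1.69 percentage points). The cause of these changes was not tested. Except for single cytosines, these settings left fewer regions. The depth per cytosine is unknown, so a single listed cytosine may rest on few reads.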

Other observations

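Hypermethylated first-intron cytosines outnumbered hypomethylated ones on the 19 autosomes and on X in the authors' deposited tables. No loss was listed on chromosomes 6 and 14, beside 38 and 25 gains. The nearest balances were on X, with 5 gains and 2 losses, and on chromosome 18, with 18 and 5. Over the listed cytosines of all classes, chromosome 6 had 260 gains and 17 losses and chromosome 14 had 194 and 17. X had 84 and 46 there, again the nearest balance, and chromosome 18 had 181 and 25. Differences between chromosomes were not tested. The first introns with a listed cytosine belonged to transcripts with 1 to 57 introns, and 67 of the 936 cytosines lay in the only intron of a transcript.

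Genes not annotated as protein-coding were nearest to 61 of the 936 cytosines, 59 of them gains. Gm5468 (Gm48957) had 4 gains between 33.3 and 57.8 percentage points 31457 to 31611 bp from its start, in its only intron. A microRNA gene had the nearest start for 6 gains inside the first introns of protein-coding genes. Mir598, in Xkr6, lay 16746 bp from a gain of 82.1 percentage points, Mir149, in Gpc1, 1426 bp from one of 32.8, and Mir326, in Arrb1, 4052 bp from one of 34.5. Mir1907, in Trps1, was nearest to 2 gains of 45.8 and 32.9 percentage points, and Mir3075, in Zmiz1, to 1 of 39.5. The glutamate decarboxylase gene Gad1 was nearest to gains of 31.5 and 28.1 percentage points that lay in the first intron of the antisense gene Gad1os.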
